A study of Mus musculus with 6 samples.

Results

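Hepatocytes draw bile acids out of the blood, pass them across the cell and pump them into bile, and each step has its own membrane transporters. Measured here in mouse liver were the mRNAs of 10 genes, chosen with earlier results of these data known. They were the uptake carriers Slc10a1, Slco1a1, Slco1a4 and Slco1b2, the pumps of the bile-facing membrane Abcb11, Abcb4, Abcc2, Abcg5 and Abcg8, and the pump Abcc3 of the blood-facing membrane. All 10 were among the 16123 genes listed and among the 10266 tested, which had a mean of at least 1 FPKM, a level per kilobase of transcript and per library size. The study has 6 libraries of total liver RNA. The 3 exercise libraries came from mice trained on a treadmill for 6 weeks, with a running distance of 22 km each, and their livers were taken 24 h after the last session. The 3 sedentary libraries came from mice without treadmill training, and the question was how moderate exercise changes liver metabolism. The exercise mice were perfused through the heart with phosphate buffered saline. Strain, sex, age, feeding state and time of day of sampling are not stated in the labels or the design text, and many bile acid genes follow meals and the clock in mouse liver.

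Bile acids cycle between liver and gut many times a day. Slc10a1 encodes NTCP, the sodium-coupled carrier that takes up most conjugated bile acids, and the Slco genes encode organic anion transporting polypeptides, which take up unconjugated bile acids, bilirubin and drugs without sodium. On the bile side, Abcb11 encodes the bile salt export pump BSEP, Abcb4 encodes the floppase that supplies phosphatidylcholine to bile, Abcc2 encodes MRP2, the pump for conjugated bilirubin and other conjugates, and Abcg5 and Abcg8 encode both subunits of the pump that sends cholesterol and plant sterols into bile. Abcc3 encodes MRP3, which returns conjugates to the blood. The bile acid receptor FXR, the oxysterol receptor LXR and the xenobiotic receptors CAR and PXR are known regulators of these genes.

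Library totals were 18164094 to 18371949 counts in the sedentary group and 17941303 to 18067298 in the exercise group. Libraries of 1 group differed little beyond counting noise. In genes with at least 20 and under 2000 reads, chi-square averaged 1.13 to 1.21 per gene for the 6 pairs of libraries from 1 group and 4.51 to 4.81 for the 9 pairs across groups, where a value of 1 is pure counting noise. The design text speaks of 3 mice per group, and the labels do not say whether each library came from 1 mouse, so the p-values measure the spread between these libraries, which may be technical. The hepatocyte markers of a list of 10, all tested, split into 5 higher and 4 lower in exercise, with a median log2 fold change of 0.05. In that test, described below, 19.1% of all tested genes were called higher and 19.0% lower. By library totals alone 6 of these markers were higher and 1 lower, against 3537 and 1203 of all 10266 tested genes. In RNA of whole tissue, fewer cells of a type and less RNA per cell cannot be told apart.

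Of the 10 transporters, 9 were higher and 1 was lower in exercise livers (edgeR's quasi-likelihood test, Benjamini-Hochberg adjusted p under 0.05 over all 10266 tested genes). In the same test 19.1% of all tested genes were called higher and 19.0% lower, and among the 6583 genes with a mean of at least 5 FPKM these shares were 22.2% and 21.6%. The changes were small. By TMM-scaled counts (TMM is edgeR's scaling, which sets the bulk of genes equal between libraries) the fold changes ran from 1.04-fold for Abcc2 to 1.21-fold for Abcc3, and Abcg8, the lower gene, was at 0.92 of its sedentary level. The median log2 fold change of the 10 was 0.18, against −0.001 over all tested genes. Because the 10 were chosen with earlier results of these data known, these comparisons describe the set and do not test it. None of the 10 passed edgeR's test against a change of 1.2-fold (0 at an unadjusted p under 0.05), which 6.36% of all tested genes passed. By deposited FPKM, 9 of the 10 had groups that did not overlap, as did 51.0% of all tested genes. By DESeq2 6 transporters were higher and 1 lower, and after quantile normalization (limma) 6 were higher and 0 lower (7 and 1 at an unadjusted p under 0.05), and both ended the calls of Slco1a4, Abcc2 and Abcg5. The call of Abcg8 depended on the scaling. By library totals alone, without TMM, 9 transporters were called higher and 0 lower. The same change of scaling moved the calls over all tested genes from 1961 higher and 1952 lower to 3537 higher and 1203 lower.

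**Figure D1:**
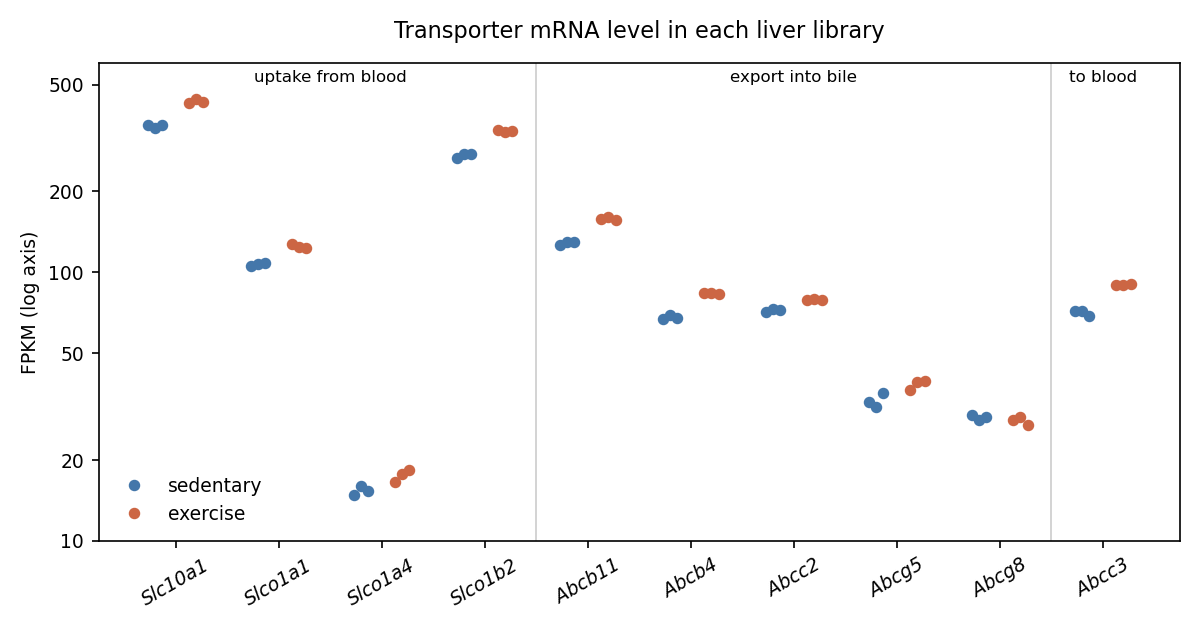
Level of each transporter mRNA in the 6 liver libraries, in FPKM on a log axis, with 1 point per library (3 sedentary in blue, 3 exercise in orange). Slc10a1 and Slco1b2 are the highest and Slco1a4 the lowest, and the exercise points lie above the sedentary ones for every gene but Abcg8.

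Among the uptake carriers, the mRNAs of the main sodium-coupled carrier and of the liver-enriched Slco1b2 rose most. Slc10a1 (gene ID 20493, chromosome 12, 80953185 to 80968705 in GRCm38.p6, minus strand) was the most abundant of the 10 per length, above 97.5% of tested genes. Its sedentary libraries were at 352, 344 and 354 FPKM and its exercise libraries at 426, 442 and 429 FPKM. All 3 exercise libraries were above all 3 sedentary ones. By TMM-scaled counts it rose 1.18-fold (95% interval 1.14 to 1.21, log2 fold change 0.23, SE 0.02, edgeR adjusted p = 2.72e-12).

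The gene Slco1b2 (gene ID 28253, chromosome 6, 141629452 to 141686646, plus strand) encodes the mouse counterpart of the human hepatic OATP1B carriers. It was at 267, 276 and 276 FPKM in the sedentary libraries and 338, 333 and 336 FPKM in the exercise ones. All 3 exercise libraries were above all 3 sedentary ones, and the rise was 1.17-fold (log2 fold change 0.22, SE 0.02, adjusted p = 8.64e-13).

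The 2 Slco1a genes lie on the minus strand of the same region of chromosome 6 and rose less. Slco1a1 (gene ID 28248, 141907281 to 141946962), known as a carrier more abundant in male mouse liver, was at 105, 108 and 108 FPKM in the sedentary libraries and 127, 124 and 123 FPKM in the exercise ones. This was a rise of 1.11-fold (log2 fold change 0.15, SE 0.02, adjusted p = 8e-07). Slco1a4 (gene ID 28250, 141805438 to 141856284), a target of CAR and PXR that is more abundant in female liver, was the lowest of the 10. It was at 14.8, 16.0 and 15.3 FPKM in the sedentary libraries and 16.6, 17.7 and 18.3 FPKM in the exercise ones. The groups were close by FPKM, and by TMM-scaled CPM (counts per library size) they overlapped (51.4 to 55.0 and 53.8 to 60.3). Its log2 fold change was 0.11 (SE 0.04, adjusted p = 0.0301), and the call was lost by DESeq2 (0.139) and with any of 4 libraries left out. Without sedentary replicate 1, sedentary replicate 3, exercise replicate 2 and exercise replicate 3 the adjusted p was 0.134, 0.0653, 0.096 and 0.193. The ratio of Slco1a1 to Slco1a4 by FPKM was 6.97 ± 0.203 in sedentary and 7.14 ± 0.494 in exercise libraries (SD, n = 3), and the groups overlapped (exact permutation p = 0.8).

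At the bile-facing membrane, the mRNAs of the bile salt pump and of the phospholipid floppase both rose. Abcb11 (gene ID 27413, chromosome 2, 69238282 to 69342616, minus strand) was at 126, 129 and 129 FPKM in the sedentary libraries and 157, 161 and 156 FPKM in the exercise ones. The groups were far apart against their own spread, and the rise was 1.17-fold (log2 fold change 0.22, SE 0.02, adjusted p = 2.41e-12). Abcb4 (gene ID 18670, chromosome 5, 8893614 to 8959226, plus strand) was at 66.8, 69.5 and 67.8 FPKM in the sedentary libraries and 83.6, 83.6 and 82.8 FPKM in the exercise ones. It rose 1.16-fold (log2 fold change 0.21, SE 0.02, adjusted p = 1.25e-09). The ratio of Abcb11 to Abcb4 was 1.89 ± 0.0261 and 1.90 ± 0.0225 in sedentary and exercise libraries (SD, n = 3, exact permutation p = 0.6), and the groups overlapped.

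The bases before the start of Abcb11 and of Slc10a1 are shown because these 2 genes, for export and uptake of bile acids, rose 1.17-fold (Abcb11) and 1.18-fold (Slc10a1). Both sequences are the 250 bases before the RefSeq start in GRCm38.p6, on the minus strand, at chr2:69342617-69342866 and chr12:80968706-80968955, and no annotated exon lies in either. Capitals mark a match to AGGTCA, the half-site of many nuclear receptors, on the opposite strand in Abcb11 (bases 56 to 51 before the start), and a match to TTCNNNGAA, the core of STAT factor sites, in Slc10a1 (bases 53 to 45 before the start).
Abcb11: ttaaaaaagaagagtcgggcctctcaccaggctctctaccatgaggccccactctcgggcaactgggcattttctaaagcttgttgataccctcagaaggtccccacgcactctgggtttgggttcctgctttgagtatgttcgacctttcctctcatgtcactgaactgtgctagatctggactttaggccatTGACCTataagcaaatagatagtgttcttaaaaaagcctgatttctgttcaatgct
Slc10a1: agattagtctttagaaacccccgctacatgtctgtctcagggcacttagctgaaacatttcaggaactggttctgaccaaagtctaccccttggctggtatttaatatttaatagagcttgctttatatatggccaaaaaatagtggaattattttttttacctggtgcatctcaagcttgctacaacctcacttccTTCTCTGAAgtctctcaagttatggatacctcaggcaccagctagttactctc

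Of the 10 genes 9 had a promoter entry in RefSeq's table, with 11 entries in all, since Slc10a1 and Abcg8 have 2 starts each. Of these 11 entries 5 held AGGTCA on either strand (1 each of Abcb11, Abcc2, Slc10a1, Slco1a1 and Slco1b2), as did 14.0% of the 32851 entries of the table over the same 250 bases. For Slc10a1 the match was before its other start, at 80968079, and the sequence printed above holds none. TTCNNNGAA was in 2 of the 11 entries, the printed one of Slc10a1 and that of Slco1b2, and in 7.02% of all entries, and TGATAA was in that of Abcc2 and in 7.94%. No entry of these genes held CAAGGTCA, which contains AGGTCA and was in 1.33% of all entries. None held 2 exact copies of AGGTCA inverted around 1 base, and only 0.00609% of all entries did. Copies with a changed letter were not counted, such as the aggccatTGACCT in the printed Abcb11 sequence. Matches of letters are a description and were not tested as binding sites. The ratio of Abcb11 to Slc10a1 by FPKM was 0.359, 0.375 and 0.366 in sedentary and 0.369, 0.363 and 0.365 in exercise libraries. The 2 groups overlapped, with means of 0.366 each (exact permutation p = 0.9).

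**Figure D2:**
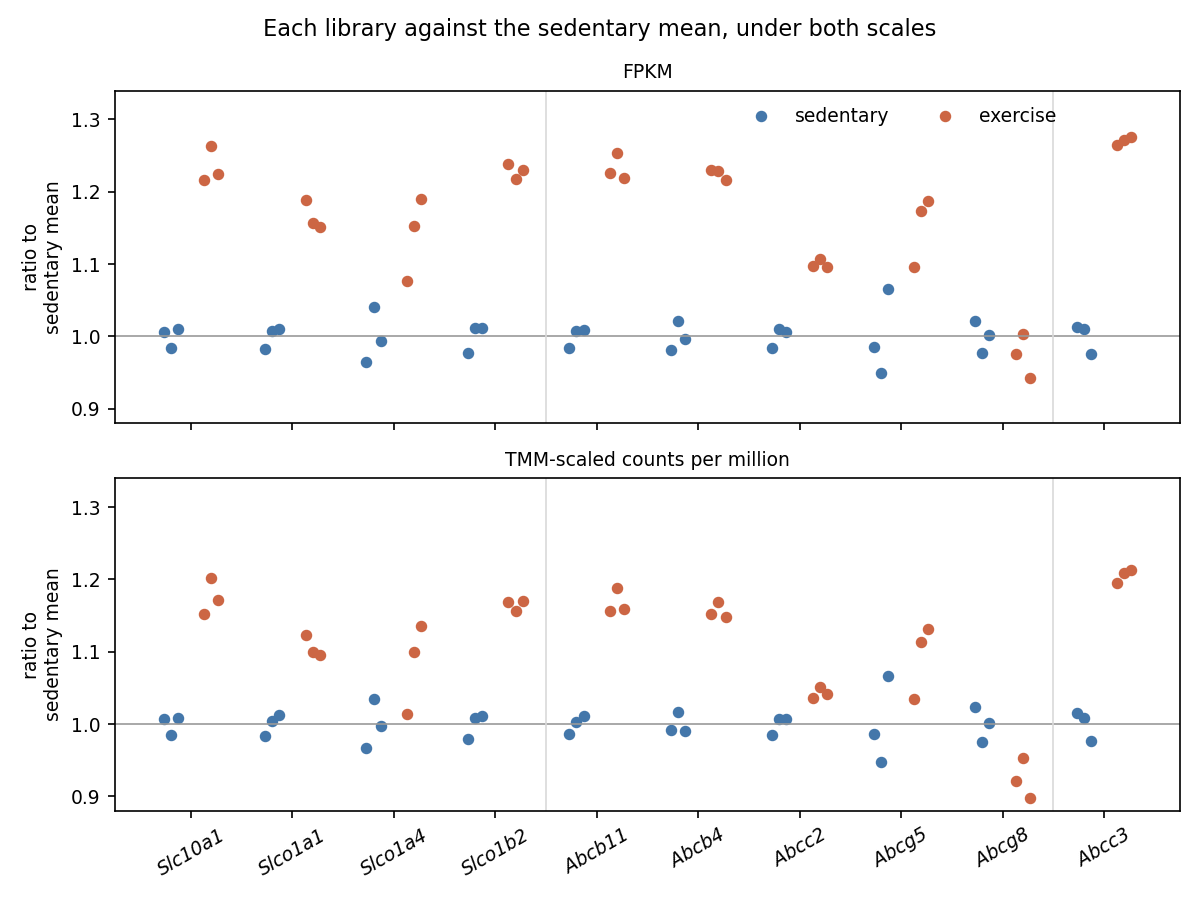
Each library's value divided by the sedentary mean of the gene, for FPKM (top) and for TMM-scaled CPM (bottom), with 3 sedentary points in blue and 3 exercise points in orange. All exercise points sit lower in the bottom panel than in the top one, so that Abcg8 overlaps the sedentary libraries by FPKM and lies below them by TMM-scaled counts, while Slco1a4 and Abcg5 are apart by FPKM and overlap by TMM-scaled counts.

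Abcc2 (gene ID 12780, chromosome 19, 43782308 to 43838332, plus strand) changed least. It was at 70.9, 72.7 and 72.5 FPKM in the sedentary libraries and 79.0, 79.8 and 78.9 FPKM in the exercise ones. These groups did not overlap. By TMM-scaled counts the log2 fold change was 0.06 (SE 0.02, adjusted p = 0.0308). The call was lost by DESeq2 (0.0649) and without sedentary replicate 1 (0.123), sedentary replicate 3 (0.054) or exercise replicate 2 (0.0932). The log2 fold change was 0.14 by library totals alone and 0.17 on the TPM scale.

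Abcc3 (gene ID 76408, chromosome 11, 94343295 to 94393017, minus strand) rose most of the 10. It was at 71.6, 71.5 and 69.0 FPKM in the sedentary libraries and 89.4, 89.9 and 90.2 FPKM in the exercise ones. The rise was 1.21-fold (95% interval 1.17 to 1.25, log2 fold change 0.27, SE 0.02, edgeR adjusted p = 1.34e-13). With falls ranked below rises, it was above 92.5% of all tested genes. By size of change in either direction it was above 80.8%. Abcc2 and Abcc3 carry overlapping conjugates to opposite sides of the cell and were near equal in sedentary livers. The ratio of Abcc3 to Abcc2 was 1.01, 0.982 and 0.952 in sedentary and 1.13, 1.13 and 1.14 in exercise libraries, so it was higher in every exercise library (exact permutation p = 0.1, the smallest that 3 against 3 allows, and 0.25 after adjustment over the 5 ratios computed). All 5 ratios were chosen after their values were seen, so their p-values are a description only. Bile duct cells also express Abcc3. Of 14 cholangiocyte markers 7 were tested, 1 of them higher and 3 lower, where 19.1% of all tested genes were higher and 19.0% lower. The summed level of all 14 was 120.3 to 123.8 FPKM in sedentary and 94.2 to 95.6 FPKM in exercise libraries. Spp1 alone fell by more than the sum did, from a mean of 60.7 to 30.5 FPKM. Aqp1, the higher one, went from 32.6 to 38.3 FPKM. The defining duct markers Krt19, Krt7 and Epcam were present at no more than 1.01 FPKM in any library, and their part in the rise of Abcc3 was not tested.

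The mRNAs of the sterol pump subunits moved in opposite directions by TMM-scaled counts. Abcg5 (gene ID 27409, chromosome 17, 84658174 to 84683011, minus strand) was at 32.8, 31.6 and 35.5 FPKM in the sedentary libraries and 36.5, 39.0 and 39.5 FPKM in the exercise ones. Sedentary replicate 3 and exercise replicate 1 lay next to each other, and by TMM-scaled CPM the groups overlapped (68.0 to 76.5 and 74.2 to 81.2). The log2 fold change was 0.13 (SE 0.04, adjusted p = 0.00864), and the call was lost by DESeq2 (0.0573), without sedentary replicate 2 (0.0919) and without exercise replicate 3 (0.0661).

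Abcg8 (gene ID 67470, chromosome 17, 84676302 to 84700333, plus strand) was at 29.4, 28.1 and 28.8 FPKM in the sedentary libraries and 28.1, 28.9 and 27.1 FPKM in the exercise ones, which overlap. In TMM-scaled CPM it was at 101.3, 96.5 and 99.1 in sedentary and 91.3, 94.3 and 88.9 in exercise libraries, with no overlap. The log2 fold change was −0.11 (SE 0.03, adjusted p = 0.0061) and stayed past the threshold with each library left out. It was −0.04 without TMM (adjusted p = 0.403) and −0.004 on the TPM scale (limma adjusted p = 0.934) and −0.10 after quantile normalization (limma adjusted p = 0.0626), so none of these 3 scalings called Abcg8 lower. The ratio of Abcg5 to Abcg8 by FPKM, which does not depend on library scaling, was 1.11, 1.12 and 1.23 in sedentary and 1.30, 1.35 and 1.46 in exercise libraries. Every exercise library was above every sedentary one (exact permutation p = 0.1, the smallest possible, and 0.25 adjusted over the 5 ratios). This ratio too was chosen after its values were seen.

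Abcg5 and Abcg8 start head to head, and the DNA between their starts is shown because it is upstream of both. The main starts, at 84683011 for Abcg5 and 84683121 for Abcg8, are 109 bases apart in between, at chr17:84683012-84683120 in GRCm38.p6, written on the plus strand with Abcg8 to the right and Abcg5 to the left. Capitals mark the only match to TATAAA, which reads on the minus strand, toward Abcg5 (bases 79 to 84 of the interval). It lies nearer to the start of Abcg8 than to that of Abcg5, and which gene it serves was not tested. On either strand TATAAA was in 5 of the 11 promoter entries of these genes and in 12.4% of all promoters. The match shown counts for both Abcg5 and Abcg8.
Interval: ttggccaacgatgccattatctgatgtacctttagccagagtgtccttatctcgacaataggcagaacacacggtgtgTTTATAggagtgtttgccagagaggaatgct
The annotation also gives Abcg8 a transcript that starts inside Abcg5, and exons of the 2 genes share 82 bases, 3.02% of the exonic bases of Abcg5 and 2.19% of those of Abcg8. Whether counting used strand is not stated, so reads from these bases cannot be told apart. Of the other members, Abcb11 alone shared exonic bases with other annotated genes (3.01%). The counts of all 10 were whole numbers in every library.

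**Figure D3:**
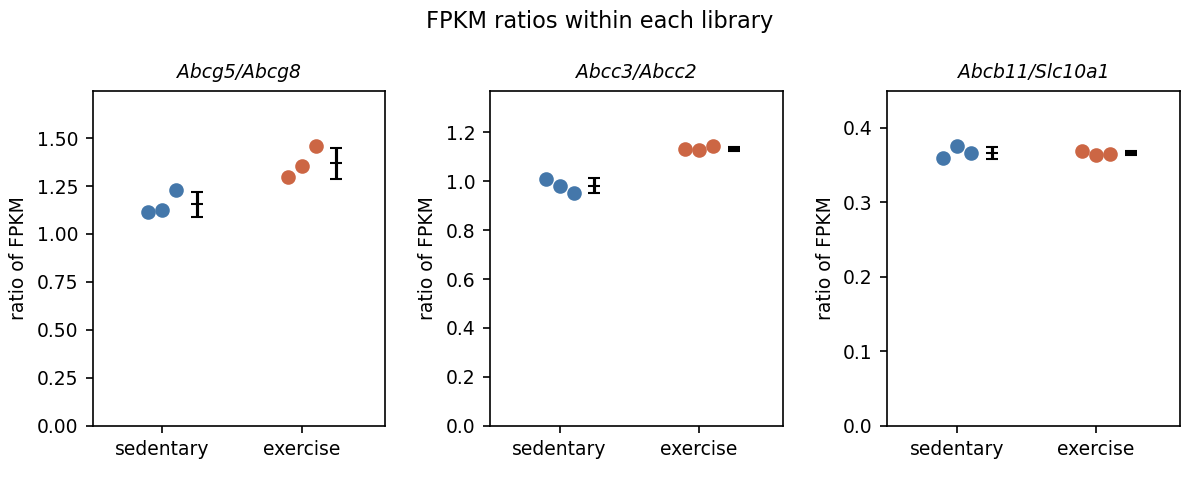
FPKM ratios within each library for Abcg5 to Abcg8, Abcc3 to Abcc2 and Abcb11 to Slc10a1, with 1 point per library and the mean and SD beside each group (n = 3). The first 2 ratios are higher in all exercise libraries, at means of 1.37 against 1.16 and 1.13 against 0.982, and the third overlaps between the groups.

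Per length, the order of the 10 genes was the same by the mean of either group down to Slco1a1. Slc10a1 was highest, followed by Slco1b2, Abcb11 and Slco1a1, which were apart from each other by more than their spread in both groups. Abcc2, Abcc3 and Abcb4 followed at 72.0 ± 1.02, 70.7 ± 1.48 and 68.0 ± 1.40 FPKM in sedentary livers (SD, n = 3), of which Abcc2 and Abcc3 overlapped and Abcc3 and Abcb4 overlapped. In exercise livers Abcc3 was first of these at 89.8 ± 0.383, then Abcb4 at 83.3 ± 0.497 and Abcc2 at 79.2 ± 0.474 FPKM, and no 2 of them overlapped. Abcg5, Abcg8 and Slco1a4 were lowest in both groups, in that order, with no overlap between neighbours.

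**Figure D4:**
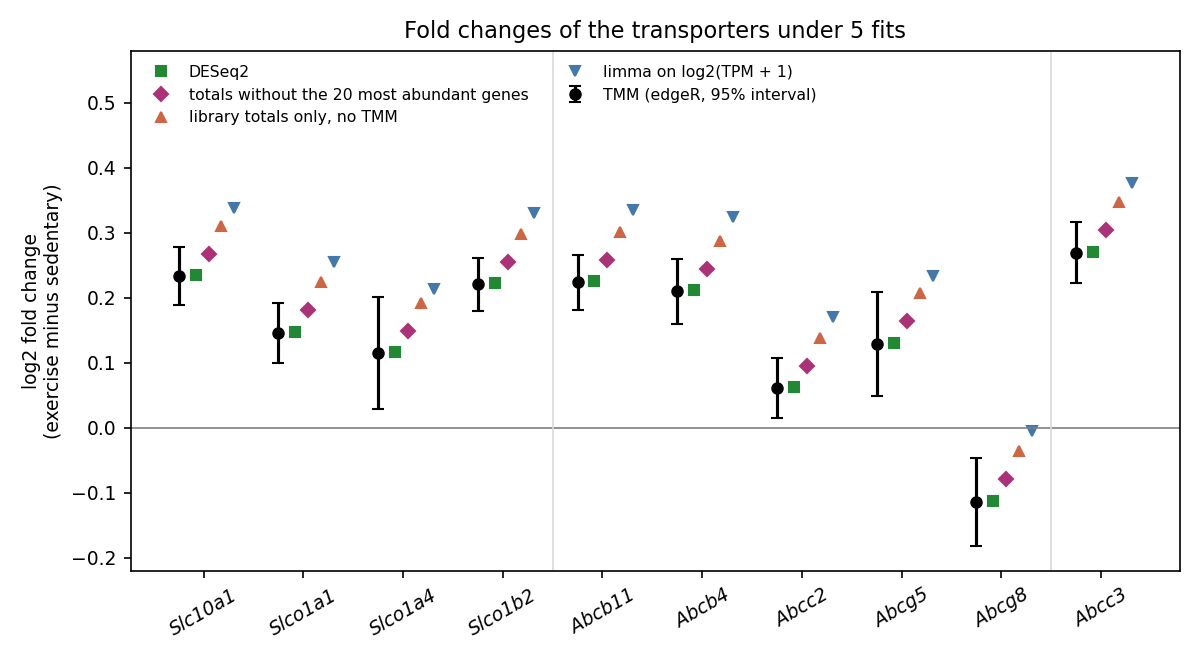
Log2 fold change (exercise minus sedentary) of each transporter under 5 fits: edgeR with TMM with its 95% interval (black), DESeq2, edgeR on totals without the 20 most abundant genes, edgeR on library totals alone, and limma on log2(TPM + 1). Within a gene the values climb from TMM to TPM, 9 genes stay above 0 throughout, and Abcg8 goes from −0.11 to −0.004.

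Among other carriers of bile acids, organic anions and sterols, more genes were lower than higher. Of 33 such genes on a list 31 were in the table and 21 were tested, of which 2 were higher and 6 lower, with a median log2 fold change of −0.06. For this list and those that follow, the shares over all tested genes were 19.1% higher and 19.0% lower. The largest fall was of Slc22a7, the organic anion carrier OAT2 of the blood-facing membrane, from 21.4 to 12.4 FPKM (1.82-fold lower, adjusted p = 5.44e-18). Slco2b1, another organic anion transporting polypeptide of the liver, fell 1.22-fold, Slc47a1, which exports organic cations, fell 1.21-fold, and Atp7b, which sends copper into bile, fell 1.26-fold. Slc10a2, the sodium-coupled bile acid carrier of gut and bile duct cells, fell 1.38-fold, at 3.75 and 2.86 FPKM. The 2 higher genes were Abcg2, a conjugate pump of the bile-facing membrane (log2 fold change 0.10), and Scarb1, the HDL receptor (0.08), and neither passed by DESeq2. By library totals alone the split of this list was 6 higher and 5 lower. Abca1, which loads cholesterol onto HDL, Abcg1, a cholesterol exporter, and Atp8b1, a phospholipid flippase of the bile-facing membrane, had log2 fold changes of 0.01, −0.16 and −0.003 and did not pass. Abcc4, a pump of the blood-facing membrane, had 43 to 49 reads in sedentary and 49 to 60 in exercise libraries and was under the filter. Slc51b, a subunit of the blood-facing bile acid carrier OST, had at most 5 reads in any library. Its partner Slc51a was not found among the genes listed.

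Genes for enzymes that make bile acids moved both ways, with 8 of 17 tested higher, 4 lower and a median log2 fold change of 0.07. The falls were led by Cyp7a1, the first enzyme of the classical pathway, from 20.7 to 10.3 FPKM, and by Cyp2c70, which makes the muricholic acids of mice, from 589 to 394 FPKM. Cyp39a1, an oxysterol hydroxylase, rose from 4.13 to 7.69 FPKM. Cyp27a1, the sterol 27-hydroxylase, rose 1.15-fold, and Slc27a2, an acyl-CoA synthetase, rose 1.14-fold. Cyp7b1 of the alternative pathway had a log2 fold change of −0.16 (adjusted p = 1.6e-07), and Cyp8b1, which sets the share of cholic acid, one of 0.12 (adjusted p = 0.00022). By library totals alone this list had 10 higher and 3 lower.

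The regulators of the transporters were split evenly, with 6 of 21 tested genes higher, 6 lower and a median of 0.00. Over all tested genes 19.1% were higher and 19.0% lower. Nr1h4, which encodes FXR, had means of 69.4 FPKM without and 71.1 FPKM with exercise. Its log2 fold change of −0.04 (SE 0.03, adjusted p = 0.357) missed the threshold, as did that of its target Nr0b2 (0.05, SE 0.05, adjusted p = 0.437). Nr1h3, the LXR-alpha gene, had a log2 fold change of −0.13 (adjusted p = 0.00612). Its groups overlapped by FPKM, with means of 51.5 FPKM in sedentary and 49.5 FPKM in exercise livers. The LXR list given below, which holds Nr1h3, had 3 lower genes by edgeR with TMM. It had 1 by DESeq2, by library totals alone and on the TPM scale. Nr1i3 and Nr1i2, which encode CAR and PXR, rose 1.55-fold and 1.19-fold, Hnf4a, a factor of hepatocyte identity, rose 1.21-fold and Nfe2l2, which encodes NRF2, rose 1.27-fold. Onecut1, another hepatocyte factor, went from 10.3 to 1.63 FPKM, and the oestrogen receptor gene Esr1 from 2.45 to 1.29 FPKM. Without TMM the split was 10 higher and 4 lower.

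Genes known to respond to the same receptors gave no single direction, where 19.1% of all tested genes were higher and 19.0% lower. Of the FXR list 1 of 6 tested genes rose, Fgf21, and 3 fell, among them Fetub (1.29-fold) and Sdc1 (1.17-fold), with a median of −0.03. Of the LXR list, which holds Abca1, Abcg1 and Nr1h3 too, 5 of 12 rose and 3 fell (1 fell by DESeq2), with a median of 0.05. The desaturase gene Scd1 rose 1.71-fold and Pltp, a lipid transfer protein, 1.43-fold, and Cd5l, a product of macrophages, fell 1.32-fold. Of the CAR and PXR list 4 of 13 rose and 5 fell, with a median of −0.10. Cyp3a11 rose 1.16-fold and Gsta2 1.75-fold, while Alas1, the first enzyme of heme synthesis, went from 201 to 70.5 FPKM and Cyp2b10 went from 1.65 to 0.807 FPKM. Of the NRF2 list 5 of 11 rose, led by Gstm1 (1.30-fold) and Ephx1 (1.39-fold), and 2 fell, of which Srxn1 fell 1.32-fold, with a median of 0.07. By library totals alone the counts of higher and lower genes were 3 and 2 (FXR), 7 and 1 (LXR), 6 and 5 (CAR and PXR) and 6 and 1 (NRF2).

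Genes for proteins that hold pumps at the bile canaliculus or seal it were more often lower than higher. Of 20 tested genes 1 was higher and 10 were lower, with a median of −0.12. Slc9a3r1 and Pdzk1, scaffolds that bind the tails of membrane transporters, fell 1.17-fold each, and the tight junction genes Cgn and Cldn1 fell 1.21-fold and 1.14-fold. Anpep, an aminopeptidase of the canalicular membrane, fell 1.15-fold. Hax1, which binds the bile salt pump, was the higher gene (1.11-fold). The balance of this list depended on the scaling, with 6 higher and 6 lower by library totals alone and 5 higher and 4 lower on the TPM scale.

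Markers of other cells moved in the same libraries, and their part in the transporter changes was not tested. Among all tested genes 19.1% were higher and 19.0% lower. Of 10 Kupffer cell markers 8 were lower and none higher, with a summed level of 308.9 to 314.4 FPKM in sedentary and 265.8 to 270.6 in exercise libraries. Of 10 liver endothelial markers 3 were higher and none lower (112.1 to 113.8 and 123.8 to 131.9 FPKM), and 9 were higher by library totals alone. Of 9 tested stellate cell markers 4 were higher and 1 lower (125.6 to 128.3 and 163.9 to 167.4 FPKM). Most of that sum came from Dcn (62.6 FPKM in sedentary and 79.9 FPKM in exercise livers) and Ecm1 (43.6 and 63.4 FPKM). Col3a1 was the lower one (5.22 and 4.29 FPKM), and Des, Pdgfrb, Lum and Hand2 did not pass. Pancreatic acinar markers, 11 of them in the table, had 2 tested, both lower, and 10 were lower without the filter on low genes. Of the 11 markers 9 had 0 reads in every exercise library. Sedentary reads of these 9 were 53, 55 and 62 for Amy2a5, a pancreatic amylase, and 0 to 17 for the other 8. The summed level of all 11 was 17.8 to 18.9 FPKM in sedentary and 8.17 to 8.68 FPKM in exercise libraries, and Cela1, an elastase, made up most of the latter, at 7.89 FPKM. Enterocyte markers, 5 in the table, had 1 higher and 1 lower of 2 tested and were at 96.4 to 100.7 and 97.2 to 100.8 FPKM, nearly all of it from Apoa4 and Fabp2, and Lct and Cdh17 had at most 1 read in any library.

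**Figure D5:**
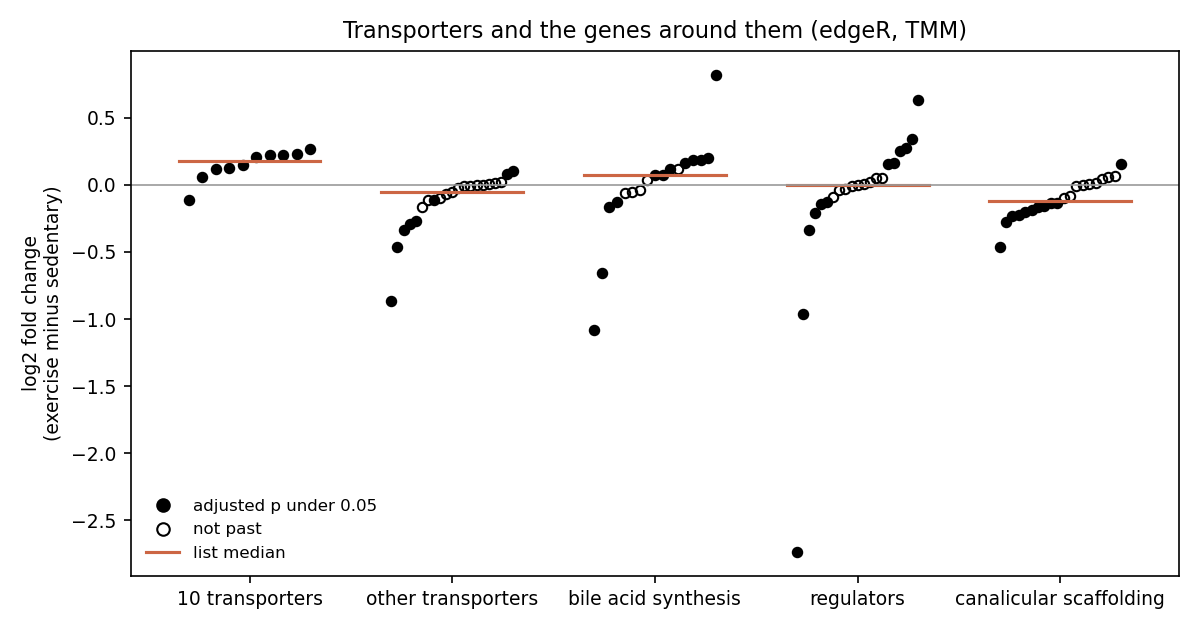
Log2 fold change (exercise minus sedentary, edgeR with TMM) of every tested gene in 5 lists, sorted within each list, with filled points past an adjusted p of 0.05, open points not past it and an orange line at the list median. The medians are 0.18 for the 10 transporters, −0.06 for other transporters, 0.07 for bile acid synthesis, 0.00 for regulators and −0.12 for canalicular scaffolding, and the lowest point is Onecut1.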

How the data were processed

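Liver RNA of 6 libraries was read in pairs on a DNBseq instrument after TRIzol extraction, per the labels, which also state that low-quality reads, reads rich in undetermined bases and short reads were removed. The submitters' processing notes name build GRCm38.p6, cutadapt, featureCounts and MultiQC. For versions, aligner, annotation and strand setting the entry is: not given in the sources used here. The deposited table holds, per the file headers, read counts, FPKM and TPM for each gene and library. The deposited read counts are treated as estimated counts, since 1165 of 16123 genes had a value that was not whole, and were rounded. The authors' FPKM and TPM were used as given, and the 6 columns of averages were not used.

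Columns were matched to samples by the description in the labels, and samples to groups by the treatment label. Exercise was compared with sedentary in edgeR 4.0.16 (R 4.3.3) with TMM scaling and the quasi-likelihood F test, two-sided, without covariates, over the 10266 genes that reached a mean of 1 FPKM, with Benjamini-Hochberg adjusted p-values and a threshold of 0.05. TMM factors were 0.972 to 0.977 in sedentary and 1.03 in exercise libraries. SE is the log2 fold change over the square root of F. Alternatives used DESeq2 1.42.0, limma 3.58.1, other scalings, filters and thresholds, each library left out, and the replicate number as a block. Ratios were tested with an exact permutation test, two-sided, and were chosen after their values were seen. Counts of 10266 genes were simulated for this comparison at the spread of these libraries, with 200 genes changed. Of genes changed 1.1-fold 28% and of those changed 1.25-fold 66% were recovered, and 4.67% of calls were unchanged genes. The data had 3913 calls, far more than the genes changed here, and the spread may be technical, so these shares may not hold for the data. The named genes are all 10 members, up to 6 genes of each pathway list with the smallest p, and a few regulators, carriers and enzymes listed by symbol. Abcg2, Scarb1, Cyp2b10 and single genes of the marker lists were named outside this rule. Members and lists were chosen with earlier results of these data known. Promoter sequences and coordinates are from RefSeq's tables of GRCm38.p6 and exons from GENCODE M21 on the same build. Of the genes on the lists, Tf was found as Trf.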

Additional observations from a re-analysis of the deposited data

How the results depend on the processing

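Over the 20 alternatives the 10 transporters kept their direction in all 200 values, and 149 kept their side of the threshold. The other 51 were calls lost, 30 of them in 3 stricter fits with 0 transporters higher and 0 lower: the test against a 1.2-fold change (653 of all genes called), and 1 summed library per group at an assumed biological variation of 0.1 (176 called) and 0.2 (23 called). These 3 fits gave 0 at an unadjusted p under 0.05 as well. The measured variation between libraries was 1.84%. The number of transporters lower was 0 without TMM, with totals that leave out the 20 most abundant genes, with limma on log2(FPKM + 1), log2(FPKM + 0.1) or log2(TPM + 1), or after quantile normalization, all of which ended the call of Abcg8 (1 lower at an unadjusted p under 0.05 in the second and the last, 0 in the others). Quantile normalization and DESeq2 left 6 transporters higher and ended the calls of Slco1a4, Abcc2 and Abcg5. DESeq2 called 2512 of all genes. With 1 library left out, 7 to 9 transporters were higher, 1 was lower and 3402 to 3491 of all genes were called. The split of all calls was 3537 higher and 1203 lower without TMM, 2583 and 1575 without the 20 most abundant genes, 2868 and 1099 with limma on log2(FPKM + 1), 2856 and 1096 on log2(FPKM + 0.1) and 3716 and 915 on the TPM scale, 239 and 414 against 1.2-fold, 50 and 126 at a variation of 0.1 and 5 and 18 at 0.2. The median of all genes was at most 0.0956 (TPM). Libraries of the 2 groups share replicate numbers only: deviations of same-numbered libraries correlated at −0.027 to 0.026 over genes with a mean of at least 100 reads, and with the replicate block 9 transporters were higher and 1 lower (1929 and 1917 of all genes).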
